A study of Mus musculus with 25 samples.

Results

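Cytochrome P450 enzymes of families 1 to 4 were followed in gonadal white adipose tissue of ApoE3L.CETP mice. The members were the genes with a single symbol made of Cyp, a family number from 1 to 4, a subfamily letter and a closing number, with the brightest transcript cluster standing for a gene, and they numbered 72 of the 22180 genes measured. Symbols with a further letter, such as those of the family 4 genes Cyp4a12a and Cyp4a12b, are not members. Family 1 gave 3 members, family 2 gave 47, family 3 gave 7 and family 4 gave 15. All 25 mice were male and heterozygous for the ApoE3Leiden and human CETP transgenes, which together give mice a more human-like lipoprotein metabolism, and the controls carried them too. The chow group was sampled at the age of 12 weeks (2 arrays). From that age other mice received a low-fat diet (LFD: 10% fat, 70% carbohydrate, 20% protein) for 4, 8 or 12 weeks (4 arrays each) or a high-fat diet (HFD: 60% fat, 20% carbohydrate, 20% protein, 0.25% cholesterol) for 4 weeks (3 arrays), 8 weeks (4 arrays) or 12 weeks (4 arrays). The age labels were 16 weeks for the 4-week groups, 20 weeks for the 8-week groups and 34 weeks for the 12-week groups, and because the last is more than the starting age plus the time on diet, groups are named here by time on diet.

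P450 enzymes of these families are haem proteins of the endoplasmic reticulum that add an oxygen atom to their substrates with electrons from NADPH, delivered by P450 oxidoreductase. Family 1 acts on polycyclic aromatic compounds and oestrogens and is under the Ah receptor, families 2 and 3 handle most drugs, steroids and, in subfamilies 2C and 2J, arachidonic acid, and family 4 hydroxylates fatty acids at or near the omega end. Hepatocytes express most of them, several with a sex bias set by growth hormone, whereas fat tissue is known for a smaller set that includes Cyp2e1 and Cyp1b1.

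Levels are log2 array signals. Each gene has its own probes, so levels are compared between arrays for a gene and not between genes. The tissue label held for adipocyte markers, whose mean over 11 measured genes lay between 10.89 and 12.19 on every array. A list of 16 hepatocyte markers was also high on 11 arrays, with means of 9.17 to 10.89 against 4.97 to 7.41 on the other 14. The albumin gene Alb separated the same arrays, with 12.96 to 13.62 on 11 arrays and 6.45 to 11.84 on 14, and the limit of 12.5 used here lies between them. High Alb was found on 2 LFD and 3 HFD arrays at 8 weeks and on 3 LFD and 3 HFD arrays at 12 weeks, and on none of the chow or 4-week arrays, so time and Alb are partly confounded and the diet groups are unequal in it at 8 weeks. Epididymis markers, at a mean of 3.83 to 4.17 elsewhere, reached 11.86 in chow array 1, 10.2 in HFD 4-week array 1 and 5.43 in LFD 4-week array 1. In bulk tissue, fewer cells of a type and less RNA per cell cannot be told apart.

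The members fell into 3 classes. In 22 members the lowest value on the arrays with high Alb lay above the highest value on the arrays with low Alb, by at least 1 on the log2 scale between the means; these are called members that follow Alb. A further 12 had a median of at least 7 on the 14 arrays with low Alb and are called members expressed without Alb. The other 38 met neither condition, and 0 met both. Since the limit on Alb was set with the data known, the classes are a description and carry no test. Among all genes measured, 1.15% followed Alb by the same definition and 33.1% had a median of at least 7 on the arrays with low Alb. The median gene shifted by -0.01 between the array sets, and the median member by 0.34.

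**Figure D1:**
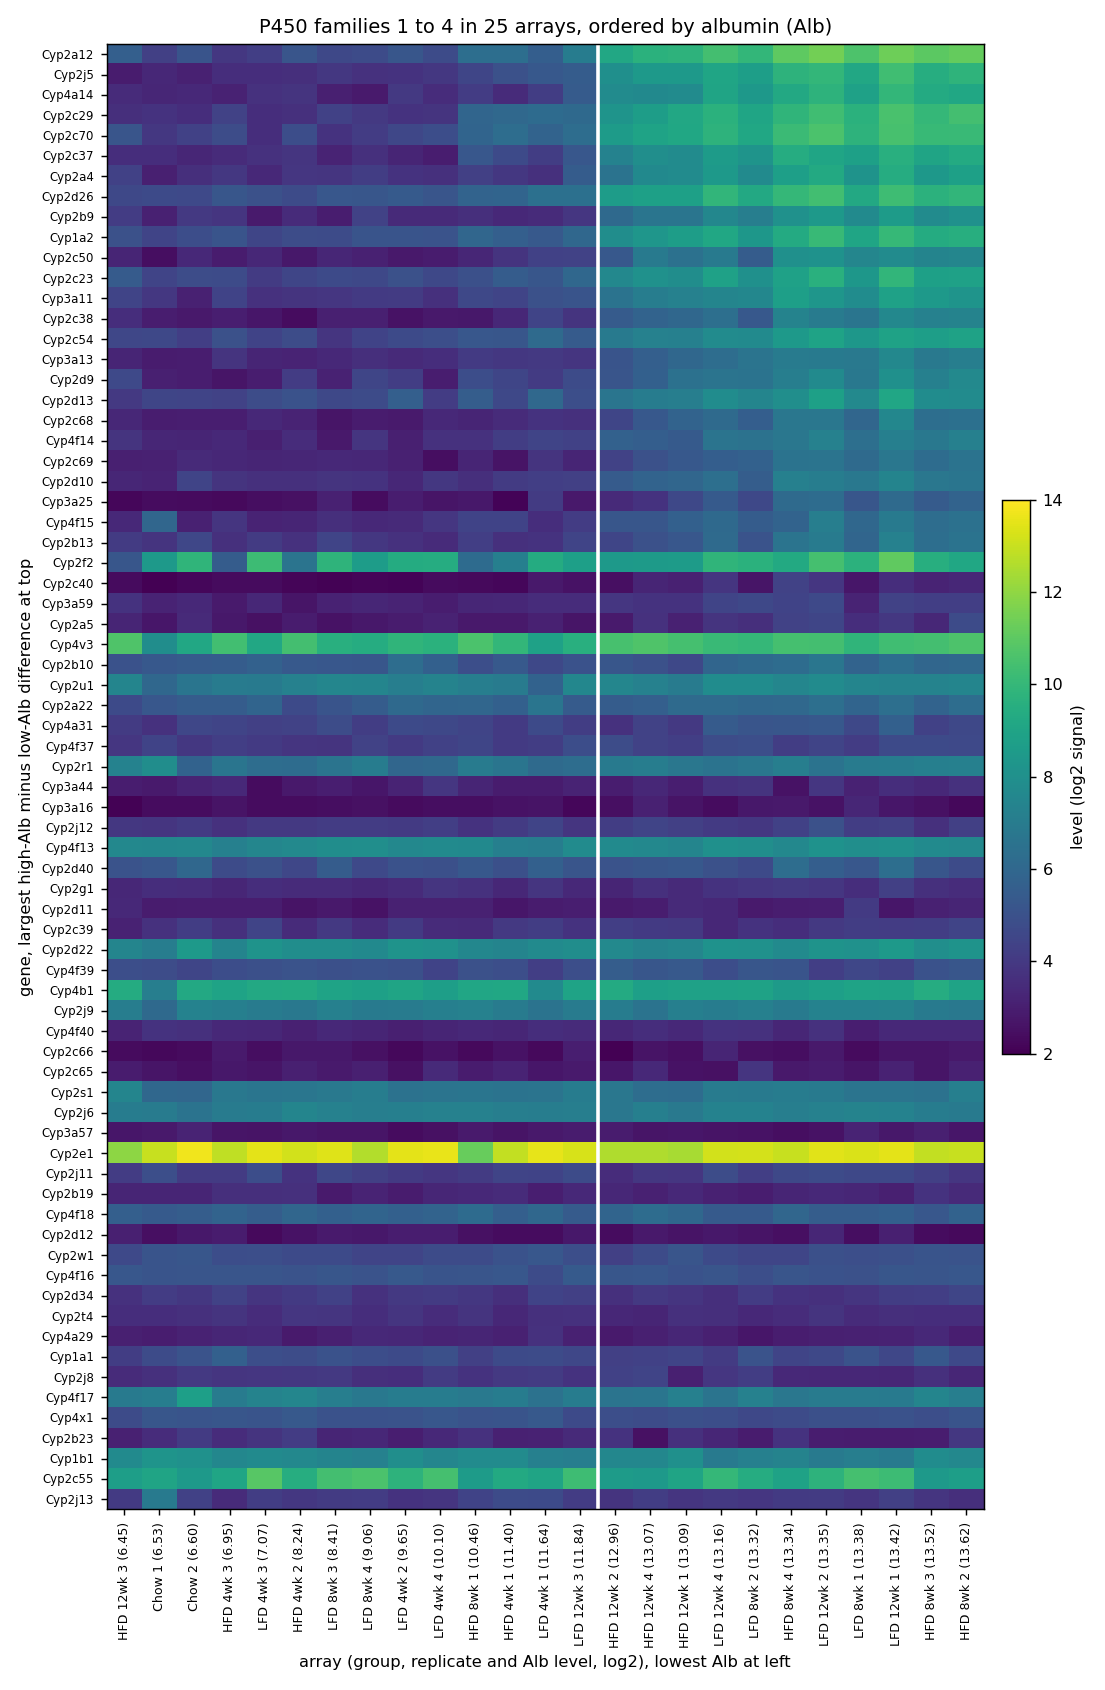
Level (log2 signal, colour) of the 72 members in rows and the 25 arrays in columns, with arrays ordered by Alb from left to right and members ordered by their difference between arrays with high and low Alb; the white line marks the limit of 12.5 on Alb. The 22 members that follow Alb form the block at the upper right, and bright rows such as Cyp2e1, Cyp4v3 and Cyp2c55 cross the line.

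The place of the classes in the genome and the letters upstream of their starts are given as counts, with no test. Subfamily 2C, whose members all lie on chromosome 19, most of them side by side and Cyp2c23 apart, gave 9 of its 14 members to those that follow Alb and 1, Cyp2c55, to those expressed without it. Subfamily 2D on chromosome 15 gave 4 and 1 of 9, subfamily 3A on chromosome 5 gave 2 and 0 of 7, and subfamily 4F gave 1 and 2 of 9. Upstream sequence of 250 bases was matched in RefSeq (GRCm38.p6) for 60 of the 72 members, 18 that follow Alb, 9 expressed without it and 33 others. The letters TATAAA (the TATA box), searched on both strands like every motif here, were present upstream of 11 of the 18, 2 of the 9 and 9 of the 33, against 14.3% of 27025 genes. CAAAGTCCA, a form of the site of the hepatocyte factor HNF4, was upstream of Cyp2c68, Cyp2c69, Cyp2c70 and Cyp3a11 (4 of 18), of 0 of 9 and of 3 of 33, against 0.451% of genes. GTTAAT, found within HNF1 sites, was upstream of 5 of 18, 0 of 9 and 3 of 33 (7.49% of genes), and the FOXA motif TGTTTAC of 3, 0 and 3 (3.54%). The DBP motif TTATGTAA (0.977% of genes) and the C/EBP motif TTGCGCAA (0.185%) matched 0 of the 60. The Ah receptor core GCGTG was upstream of 2 of 18, 3 of 9 and 7 of 33 (30.9% of genes), and the Sp1 motif GGGCGG of 1, 5 and 6 (35.4%). A match says only that the letters are there. Clustered genes share sequence by descent, so members of a subfamily are not independent.

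These 5 upstream stretches are shown because the results turn on these genes: Cyp2c70 (chr19:40187287-40187536, minus strand) and Cyp3a11 (chr5:145879855-145880104, minus strand) follow Alb, and Cyp2c55 (chr19:39006769-39007018, plus strand), Cyp2e1 (chr7:140763569-140763818, plus strand) and Cyp1b1 (chr17:79715062-79715311, minus strand) are expressed without it and differed between the diets. Each runs 5′ to 3′ on the strand of its gene in GRCm38.p6, as RefSeq gives it, and ends at the base before a transcript start. For Cyp2c55 the gene's outermost start in RefSeq, 39006940, lies within the stretch, so its last part is not upstream of every transcript. Capitals mark TATAAA, CAAAGTCCA and GCGTG on either strand; other motifs are left in lower case.
Cyp2c70: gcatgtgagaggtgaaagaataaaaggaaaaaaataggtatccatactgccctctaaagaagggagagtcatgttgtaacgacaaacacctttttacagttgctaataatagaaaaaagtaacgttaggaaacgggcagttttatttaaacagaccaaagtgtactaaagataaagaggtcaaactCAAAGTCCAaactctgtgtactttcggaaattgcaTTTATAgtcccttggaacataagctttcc
Cyp3a11: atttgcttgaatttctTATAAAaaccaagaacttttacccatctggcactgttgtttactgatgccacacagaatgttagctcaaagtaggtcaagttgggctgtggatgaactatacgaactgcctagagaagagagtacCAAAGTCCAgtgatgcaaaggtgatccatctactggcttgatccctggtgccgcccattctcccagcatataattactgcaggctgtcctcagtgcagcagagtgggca
Cyp2c55: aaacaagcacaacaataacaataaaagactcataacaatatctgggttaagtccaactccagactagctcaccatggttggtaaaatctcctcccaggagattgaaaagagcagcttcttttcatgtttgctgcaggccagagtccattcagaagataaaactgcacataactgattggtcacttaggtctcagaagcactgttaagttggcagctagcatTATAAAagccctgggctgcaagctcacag
Cyp2e1: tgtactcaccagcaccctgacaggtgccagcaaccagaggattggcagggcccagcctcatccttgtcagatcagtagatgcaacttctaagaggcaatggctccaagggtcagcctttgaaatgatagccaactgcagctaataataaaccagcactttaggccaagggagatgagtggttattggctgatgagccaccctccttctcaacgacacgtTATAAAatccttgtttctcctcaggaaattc
Cyp1b1: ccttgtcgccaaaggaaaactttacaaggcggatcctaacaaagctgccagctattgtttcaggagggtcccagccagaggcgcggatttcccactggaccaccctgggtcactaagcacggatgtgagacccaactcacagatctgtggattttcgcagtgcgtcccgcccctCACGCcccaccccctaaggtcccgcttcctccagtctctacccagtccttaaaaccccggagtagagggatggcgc
In this window Cyp2c55, the member of subfamily 2C expressed without Alb, held TATAAA and no CAAAGTCCA, and Cyp1b1 held the Ah receptor core and no TATAAA.

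The diet comparison asks how the high-fat diet changed expression at each time and over the 3 times together. Among the 12 members expressed without Alb, Cyp2f2, Cyp2c55, Cyp2e1, Cyp2d22 and Cyp4f13 were lower on HFD averaged over the 3 times, and Cyp4v3 and Cyp1b1 were higher. Of all 72 members, 10 were called in this average by limma at a Benjamini-Hochberg adjusted p under 0.05 (6 lower, 4 higher), against 10.5% of all genes (4.44% lower, 6.03% higher), so the share of members is near the background. The other 5 members expressed without Alb, Cyp4b1, Cyp2u1, Cyp2j6, Cyp4f17 and Cyp2j9, were not called.

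**Figure D2:**
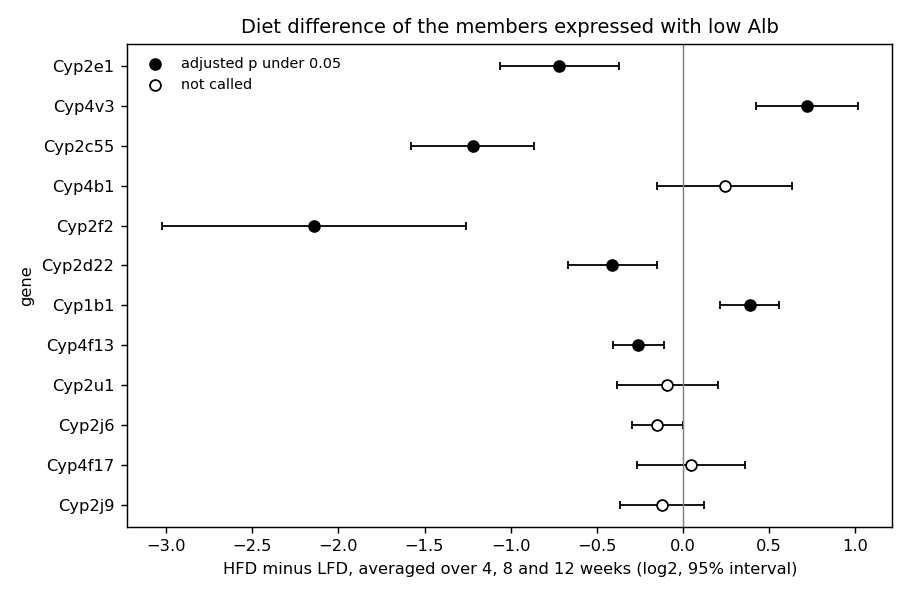
HFD minus LFD averaged over 4, 8 and 12 weeks (log2, x axis) for the 12 members expressed without Alb, with 95% intervals from limma; filled points were called at an adjusted p under 0.05. Cyp2f2 lies farthest below 0 at -2.14, and Cyp4v3 farthest above at 0.72.

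Cyp2c55, an arachidonic acid hydroxylase of subfamily 2C, had the smallest adjusted p among the members. On LFD it read 9.02, 9.76, 10.86 and 10.47 at 4 weeks, 10.44, 9.45, 10.4 and 10.59 at 8 weeks, and 10.21, 9.74, 10.26 and 10 at 12 weeks. On HFD it read 9.28, 9.47 and 9.06 at 4 weeks, 8.58, 8.73, 8.43 and 8.93 at 8 weeks, and 9.03, 8.59, 8.71 and 8.49 at 12 weeks. The diets overlapped at 4 weeks and did not overlap at 8 or 12 weeks. The difference was -0.76 ± 0.31 (log2, standard error; limma adjusted p = 0.439) at 4 weeks, -1.55 ± 0.29 (0.00627) at 8 weeks and -1.35 ± 0.29 (0.00777) at 12 weeks, and -1.22 ± 0.17 (6.52e-05) on average. At 8 weeks it was the member called of 72, against 2.4% of all genes. Within the arrays with high Alb it fell by 1.25 ± 0.27 at 8 weeks (limma adjusted p = 0.0459) and by 1.28 ± 0.24 at 12 weeks (0.00481), and on the arrays with low Alb the average was -1.41 ± 0.32 (0.0684). The chow arrays, at 9.02 and 8.45, lay in the range of the HFD arrays, and LFD at 4 weeks against chow was not called. A dimmer second cluster of Cyp2c55 read 2.8 to 4.7 on LFD and 2.79 to 3.97 on HFD and was uncorrelated with the first over the 25 arrays (r = 0.01); with the mean of both clusters the 8-week difference was -0.53 (limma adjusted p = 0.187).

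Cyp2f2, known for the bioactivation of naphthalene in airway club cells and also made by hepatocytes, was the member with the largest average difference. On the 7 LFD arrays with low Alb it read 9.39, 9.37, 10.23 and 9.42 at 4 weeks, 9.82 and 8.65 at 8 weeks and 8.78 at 12 weeks. On the 5 HFD arrays with low Alb it read 7.16, 6.64 and 5.51 at 4 weeks, 6.21 at 8 weeks and 5.21 at 12 weeks. These sets did not overlap. On the arrays with high Alb it read 9.65 to 11.07 on LFD and 8.47 to 9.51 on HFD, again without overlap, and the HFD values there overlapped the LFD values with low Alb. The average difference was -2.14 ± 0.43 (limma adjusted p = 0.00164) over all arrays, -2.31 ± 0.28 (1.12e-05) with Alb class as a block, and -3.25 ± 0.4 (0.00547) on the arrays with low Alb. At single times it was -3.17 ± 0.77 (adjusted p = 0.106) at 4 weeks, -0.92 ± 0.72 (0.632) at 8 weeks and -2.34 ± 0.72 (0.0674) at 12 weeks. With Alb class as a block, Cyp2f2 was the member called at 4 weeks (-3.17 ± 0.5, limma adjusted p = 0.00579; 0.239% of all genes called) and it was called at 12 weeks (0.00284). A dimmer second cluster of Cyp2f2 had a mean of 5.72 on LFD (5.25 to 6.41) and 5.34 on HFD (5.01 to 5.82). It was correlated with the first cluster (r = 0.76). In this second cluster the diets did not overlap on the arrays with low Alb and overlapped on those with high Alb. The size of the Cyp2f2 difference therefore depends on the cluster.

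Cyp2e1, which oxidises ethanol, acetone and fatty acids and is well known in adipocytes, read 13.55, 13.49, 13.5 and 13.59 on LFD at 4 weeks, 13.31, 13.24, 13.41 and 12.64 at 8 weeks, and 13.5, 13.45, 13.29 and 13.19 at 12 weeks. On HFD it read 12.9, 13.17 and 12.85 at 4 weeks, 11.23, 13.01, 12.88 and 13.01 at 8 weeks, and 12.42, 12.58, 11.95 and 12.57 at 12 weeks. The diets did not overlap at 4 or 12 weeks, and at 8 weeks LFD array 4 lay below 3 of the HFD arrays. The average difference was -0.72 ± 0.17 (limma adjusted p = 0.00625), and on the arrays with low Alb alone it was -1.23 ± 0.19. That smaller fit holds 1 HFD array at 8 weeks, with the lowest Cyp2e1 value of all arrays (11.23), and 1 array a diet at 12 weeks. Cyp2e1 and Cyp2f2 were the 2 members called in that smaller fit, against 1.3% of all genes. At 12 weeks it was -0.98 ± 0.28 (0.0492), a call that was lost on leaving out any of the 8 arrays (limma adjusted p 0.0599 to 0.172) and that gave 0.00108 within the arrays with high Alb. Cyp2e1 reached 13.75, near the highest signal on any array (14.13), where array signals can be compressed, so the sizes of its differences are uncertain.

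Cyp1b1, which hydroxylates oestradiol and retinoids and is a target of the Ah receptor, read 7.23, 7.95, 7.75 and 7.51 on LFD at 4 weeks, 7.14, 7.22, 7.43 and 7.27 at 8 weeks and 6.92, 6.9, 7.12 and 6.96 at 12 weeks. On HFD it read 7.77, 7.62 and 7.55 at 4 weeks, 7.81, 7.6, 7.83 and 7.38 at 8 weeks, and 8, 7.55, 7.75 and 7.54 at 12 weeks. At 12 weeks every HFD array lay above every LFD array. The diet difference was 0.04 ± 0.15 (limma adjusted p = 0.967) at 4 weeks, 0.39 ± 0.14 (0.162) at 8 weeks and 0.74 ± 0.14 (0.00285) at 12 weeks, where it was 0.77 ± 0.15 (0.00622) within the arrays with high Alb. On LFD, Cyp1b1 was lower at 12 than at 4 weeks by a log2 difference of -0.64 ± 0.14 (0.037); with Alb class as a block this was not called. Chow arrays read 8.23 and 8.09. Of the other family 1 members, Cyp1a1 lay between 4.09 and 5.66 on the LFD and HFD arrays with no difference called. Cyp1a2, which followed Alb, was not called over all arrays and was lower on HFD at 12 weeks within the arrays with high Alb (-1.44 ± 0.26, limma adjusted p = 0.00451). In the fit over all arrays 0 of 4 measured Ah receptor targets outside family 1 were called for diet at 12 weeks.

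Cyp4v3, the mouse counterpart of the fatty acid omega-hydroxylase CYP4V2, read 8.87, 9.87, 9.19 and 9.65 on LFD at 4 weeks, 9.86, 9.98, 9.55 and 9.42 at 8 weeks and 10.34, 10.43, 9.57 and 10.11 at 12 weeks. On HFD it read 9.93, 10.43 and 10.38 at 4 weeks, 10.58, 10.67, 10.41 and 10.45 at 8 weeks, and 10.47, 10.52, 10.69 and 10.7 at 12 weeks. Its lowest values on all arrays, 7.89 in chow array 1 and 8.87 in LFD 4-week array 1, were in arrays with epididymis transcripts. HFD lay above LFD without overlap at each time. The difference was 0.85 ± 0.26 (limma adjusted p = 0.246), 0.82 ± 0.24 (0.0722) and 0.48 ± 0.24 (0.328) at 4, 8 and 12 weeks and 0.72 ± 0.14 (0.0015) on average. On the arrays with low Alb the average was 1.02 ± 0.28 (0.127).

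Macrophage markers moved with these genes: 4 of 8 were higher on HFD at 8 weeks, 7 of 8 at 12 weeks and 8 of 8 on average, with Cd68 up by 1.78 ± 0.3 at 12 weeks (limma adjusted p = 0.00145), and their part in the differences of Cyp1b1 and Cyp4v3 was not tested. Fibroblast and progenitor markers were higher for 3 of 7 at 12 weeks. Of 11 adipocyte markers, 1, the glucose transporter gene Slc2a4, was lower at 8 and at 12 weeks.

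The remaining called members of this class were Cyp2d22 and Cyp4f13. Cyp2d22, held to be the nearest mouse counterpart of human CYP2D6, had an average difference of -0.41 ± 0.12 (limma adjusted p = 0.0355), a call lost without any of 13 of the 23 diet arrays. Cyp4f13, of the subfamily that inactivates leukotrienes, had -0.26 ± 0.07 (0.0205); at 8 weeks its LFD arrays read 7.92, 7.93, 7.87 and 7.94 and its HFD arrays 7.68, 7.59, 7.72 and 7.59, with no overlap. That call was lost without HFD 4-week array 1 or 3.

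The members expressed without Alb that were not called give bounds rather than evidence of equal levels. Cyp4b1, which acts on fatty acids and furan-type toxins, had an average difference of 0.24 ± 0.19 (limma adjusted p = 0.534), with 8.54 to 9.45 over the HFD arrays. The fatty acid hydroxylase Cyp2u1 had -0.09 ± 0.14 (limma adjusted p = 0.8) and Cyp4f17 had 0.05 ± 0.15 (0.916). Of subfamily 2J, Cyp2j6 had -0.15 ± 0.07 (limma adjusted p = 0.228) and Cyp2j9 had -0.12 ± 0.12 (0.645). Cyp4b1 and Cyp2u1 read lowest in 2 of the arrays with epididymis transcripts: Cyp4b1 7.15 in chow array 1 and 7.76 in LFD 4-week array 1, and Cyp2u1 5.77 in LFD 4-week array 1 and 5.99 in chow array 1. Just outside the limit of 7 lay Cyp2s1, a retinoid-metabolising enzyme, at a median of 6.67, and the vitamin D 25-hydroxylase Cyp2r1 at 6.47; just inside lay Cyp2j9 at 7 and Cyp4f17 at 7.05.

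**Figure D3:**
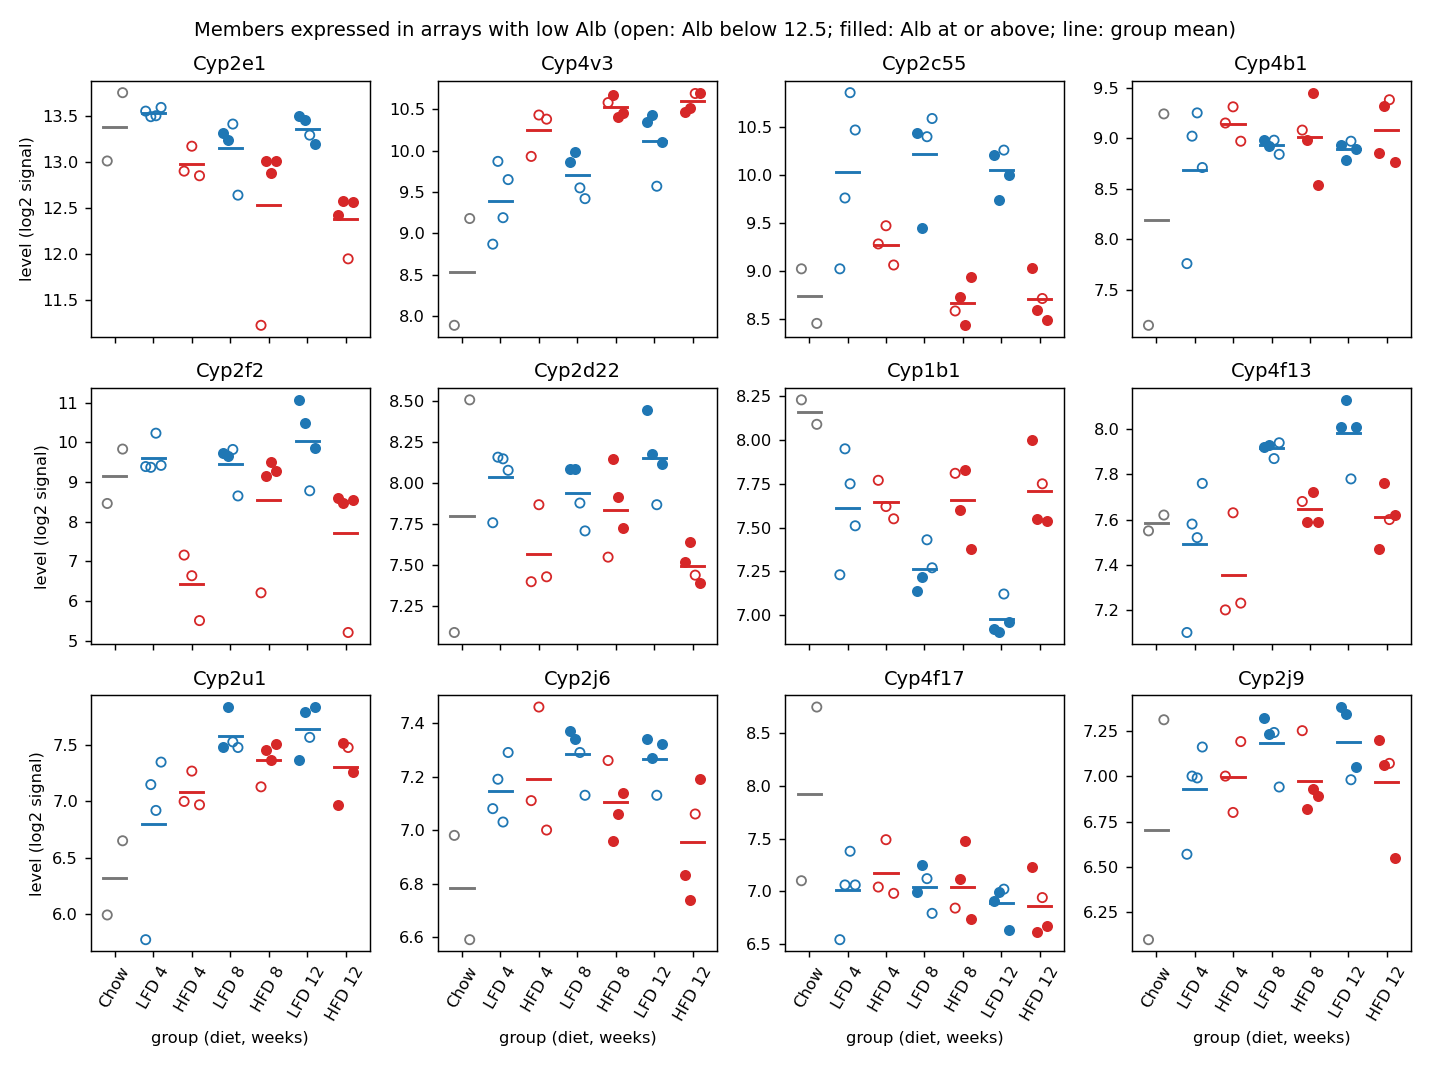
Level (log2 signal, y axis) of the 12 members expressed without Alb on each array by diet and weeks on diet (x axis); open circles are arrays with Alb below 12.5, filled circles arrays at or above it, and lines are group means. Cyp2c55 separates the diets at 8 and 12 weeks with open and filled circles mixed, while Cyp2f2 on HFD is low in the open circles, at 5.21 to 7.16, and 8.47 to 9.51 in the filled ones.

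As a description over the 14 arrays with low Alb, genes were ranked by likeness, leaving out symbols of Gm with a number or ending in Rik. Those whose levels ran most like Cyp2c55 were the lipogenic genes Fasn (Pearson r = 0.96), Slc25a1 (0.93) and Acaca (0.93). Those most like Cyp4v3 were Rtn2 (0.98), the complement gene C1qa (0.97) and the matrix gene Prelp (0.96), and those most like Cyp2e1 were Gpbp1l1 (0.94), Sec31b (0.94) and Sqor (0.92). These arrays span chow, LFD and HFD and 3 times, and the genes share those groups. They include the arrays with epididymis transcripts, and Cyp4v3 read lowest in chow array 1 and LFD 4-week array 1.

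At 12 weeks 7 of the 72 members were called for diet, 5 lower and 2 higher, against 4.46% of all genes (1.33% lower, 3.13% higher): Cyp2c55, Cyp2e1 and Cyp1b1, described above, and Cyp4a31, Cyp2j11, Cyp2c66 and Cyp4f39 of the class that met neither condition. The count rests on single arrays, since it was 2 without HFD array 2, 3 without LFD array 4 and 4 without LFD array 1 or 2. Cyp4a31, of the fatty acid omega-hydroxylases induced by PPARα, read 5.7, 5.31, 4.2 and 5.43 on LFD and 3.99, 3.71, 4.1 and 4.35 on HFD, a difference of -1.12 ± 0.27 (limma adjusted p = 0.0166). LFD array 3, the array of that group with low Alb, overlapped the HFD arrays, and the 3 others did not. On arrays with low Alb the 12-week difference of Cyp4a31 was -0.1 ± 0.43, from 1 array a diet. Cyp2j11 read 4.58, 4.76, 4.72 and 4.81 on LFD and 3.9, 3.54, 4.14 and 3.94 on HFD (-0.84 ± 0.2, limma adjusted p = 0.018). Cyp2c66, with -0.57 ± 0.14 (0.0234), read 2.02 to 3.26 in these groups, near the lowest signal on the arrays (1.73). Cyp4f39, an omega-hydroxylase of very long fatty acids in skin, read 4.3, 4.22, 4.86 and 4.85 on LFD and 5.33, 5.56, 4.89 and 5.19 on HFD (0.69 ± 0.18, 0.0333), and the nearest arrays of the diets were 4.86 and 4.89. On average over time Cyp4f39 (0.39 ± 0.11, 0.0232) and Cyp2j11 (-0.4 ± 0.12, 0.0325) were called as well, as was Cyp2b19 at the limit (0.26 ± 0.08, 0.04998), a call lost without any of 17 of the 23 diet arrays.

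At 4 weeks limma called 0 of 72 members, against 0.212% of all genes. At an unadjusted limma p under 0.05 were 8 members and 2069 of 22180 genes. The interaction of diet and time was called for 0 members and 0.0% of all genes. Its unadjusted limma p was under 0.05 for 8 members and 1199 genes. No diet difference is therefore shown to change with time in the fit over all arrays. A 2-factor analysis of variance like that named in the design gave 6 members at an unadjusted p under 0.05 for the interaction. These were Cyp1b1, Cyp2a22, Cyp2b13, Cyp2c40, Cyp2c66 and Cyp4a31. At that limit and a fold of at least 1.5 it gave 4 for the average, Cyp2c55, Cyp2e1, Cyp2f2 and Cyp4v3. These counts have no share of all genes beside them and are not read as a result about the members.

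The 10 members that follow Alb with the largest mean differences between arrays with high and low Alb included Cyp2a12 (5.3, log2), the arachidonic acid epoxygenase Cyp2j5 (5.22), the PPARα target Cyp4a14 (5.14) and the retinoid and arachidonic acid enzyme Cyp2c29 (5.13). The others were Cyp2c70, which makes muricholic acids in mouse liver (4.84), Cyp2c37 (4.78), the steroid 15α-hydroxylase Cyp2a4 (4.35), Cyp2d26 (4.22), Cyp2b9 (3.96) and Cyp1a2, the constitutive hepatic member of family 1 (3.95). With low Alb these members read near or below the median signal of an array (5.04 to 5.36), and no background limit was used, so the differences may be too small and their order between genes is not interpreted. A dimmer second cluster of Cyp2c29 read 2.51 to 3.3 on LFD and 2.46 to 3.54 on HFD. Its values overlapped between the arrays with high and low Alb. It was weakly correlated with the first cluster (r = 0.12). The Alb difference of Cyp2c29 therefore rests on its brightest cluster. The smallest difference of the 22 was 2.67, for Cyp2d10, and the narrowest gap between the array sets was 0.32 for Cyp2d9 and 0.54 for Cyp2c69. Just outside lay Cyp2b13, whose lowest value with high Alb (4.53) was 0.01 under its highest with low Alb (4.54, chow array 2), and Cyp2c40, which overlapped by 0.34. The drug-metabolising Cyp3a11 read 6.57 to 8.86 on the arrays with high Alb and 3.09 to 5.12 on the others. Values on the arrays with low Alb rose toward the limit too: LFD 12-week array 3, with Alb at 11.84, held the highest of the low-Alb values for 11 of the 22 members, and LFD 4-week array 1, with 11.64, for 7.

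**Figure D4:**
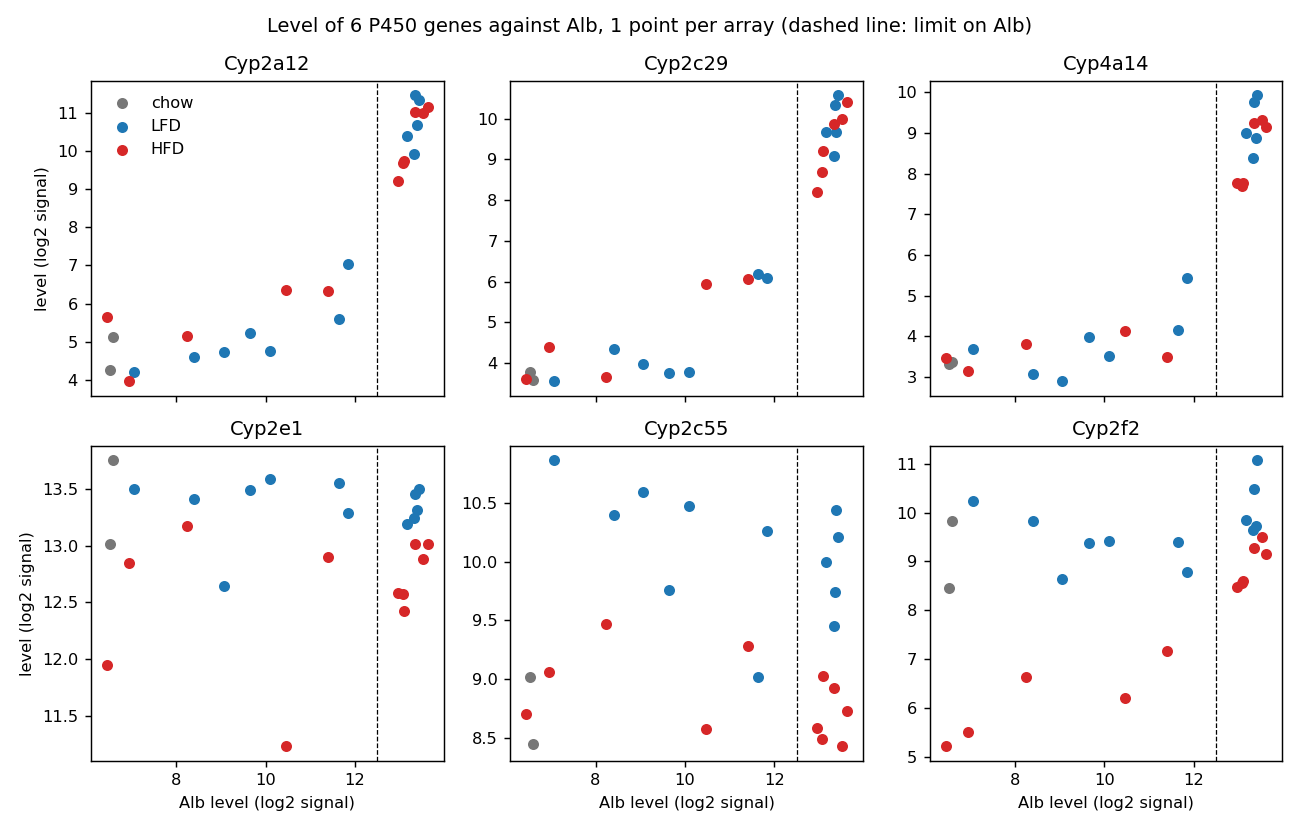
Level (log2 signal, y axis) of 3 members that follow Alb (upper row) and 3 expressed without it (lower row) against the level of Alb on the same array (x axis), 1 point per array, coloured by diet; the dashed line is the limit of 12.5. Cyp2a12, Cyp2c29 and Cyp4a14 step up beyond the line, whereas the LFD and HFD points of Cyp2f2 do not overlap on either side and those of Cyp2c55 overlap only below it.

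The sex-biased liver members are given beside the labels, which name all mice male. Of 6 members known for female-biased liver expression, Cyp2b9, Cyp2a4 and Cyp4a14 followed Alb, Cyp2b13 came within 0.01 of doing so, and Cyp3a16 (2.05 to 3.27 on all diet arrays) and Cyp3a44 (2.39 to 3.9) stayed low. Cyp2b9 read 7.74 and 7.14 on LFD and 8.09, 7.77 and 8.05 on HFD in the high-Alb arrays at 8 weeks, and 8.6, 8.47 and 7.57 on LFD and 6.66, 6.11 and 6.66 on HFD at 12 weeks. On the arrays with low Alb it did not pass 4.35. Cyp2d9, the male-biased steroid 16α-hydroxylase of mouse liver, read 5.15 to 8.03 with high Alb and 2.69 to 4.83 without. The 8 other male-biased liver genes had a mean of 6.43 to 8.18 with high Alb and of 4.18 to 6.01 without, and 6 measured female-biased liver genes outside the members had 4.06 to 4.85 and 3.58 to 4.03. Xist, the transcript of the inactive X chromosome, read 5.03 to 6.76 on the arrays with high Alb and at most 3.92 on the others. The part of any of these in the others was not tested.

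For diet, limma over all arrays called 0 of the 22 members that follow Alb at 8 weeks and 0 at 12 weeks, and 0 for the interaction. Their median difference was 1.63 at 8 weeks, with all 22 above 0, and -1.32 at 12 weeks, with all 22 below 0; over all genes the medians were -0.01 and -0.01. The 16 hepatocyte markers had medians of 1.95 and -1.54 in the same fit, with 0 called. The split of high-Alb arrays was 2 of 4 on LFD and 3 of 4 on HFD at 8 weeks and 3 of 4 in both at 12 weeks.

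Within the arrays with high Alb, 3 against 3 at 12 weeks, all 22 members that follow Alb had differences below 0, and 21 were called lower on HFD. Cyp2c50 was not called (-1.38 ± 0.49, limma adjusted p = 0.12). Over all members 34 of 72 were called, 32 lower and 2 higher, against 8.12% of all genes (3.98% lower, 4.14% higher). Most of these calls were members that follow Alb, a class defined by high values on these same arrays. All genes are therefore not a like background for them. The 254 genes that follow Alb were not counted for diet, so the excess is not read as particular to P450 genes. The differences of the 22 ran from -1.81 for Cyp4a14 to -1.21 for Cyp2c38, with a median of -1.44 against -0.01 over all genes. Cyp4a14 read 9.93, 9.76 and 9 on LFD and 7.78, 7.78 and 7.71 on HFD, which did not overlap (-1.81 ± 0.21, limma adjusted p = 0.000507). Cyp2d26 read 10.26, 10.38 and 9.89 on LFD and 8.8, 8.64 and 8.84 on HFD (-1.42 ± 0.14, 0.00029). Cyp2a12 read 11.33, 11.46 and 10.4 against 9.75, 9.21 and 9.68 (-1.52 ± 0.26, 0.00318), and Cyp2c70 10.53, 10.6 and 9.77 against 9.15, 8.59 and 8.97 (-1.4 ± 0.22, 0.00196). In each of these 4 members LFD array 4 was the lowest of the LFD arrays. The members outside the class that were lower there included Cyp3a25 (-2 ± 0.31, 0.00176), Cyp2b13 (-1.88 ± 0.29, 0.00172) and the constitutive androstane receptor target Cyp2b10 (-1.38 ± 0.2, 0.00146), and the 2 higher were Cyp1b1 and Cyp4f39.

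Hepatocyte markers were lower in the same comparison: 13 of 16 were called, with a median of -1.26, Itih3 at -1.62 ± 0.23 (limma adjusted p = 0.00129) and Apoa1 at -0.72 ± 0.19 (0.0294). Alb itself had -0.27 ± 0.12 (0.225), at a level close to the highest signal on any array (14.13). Of the male-biased liver genes outside the members 7 of 8 were lower, among them Cyp4a12a (-1.22 ± 0.19, 0.00196), and of the female-biased ones 1 of 6, Acot3 (-1.09 ± 0.21, 0.00599). These female-biased genes had low signals, with a list mean of 4.06 to 4.85 on the arrays with high Alb. Female-biased members were called lower too, Cyp2b13 (-1.88), Cyp4a14 (-1.81), Cyp2b9 (-1.74) and Cyp2a4 (-1.71), whereas Cyp3a16 and Cyp3a44 were not called. A difference between male-biased and female-biased genes was not tested. Less hepatocyte RNA in the HFD samples and a lower level of these transcripts per hepatocyte cannot be told apart here.

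At 8 weeks the same fit, 3 HFD against 2 LFD arrays, had all 22 above 0 with a median of 0.69, and limma called 0 of them; the member called was Cyp2c55, against 0.951% of all genes. Over the members 23 of 72 had an unadjusted limma p under 0.05, as did 3358 of 22180 genes. The members that follow Alb are a class defined by high values on these arrays, so all genes are not a like background. Hepatocyte markers had a median of 0.46 there with 0 of 16 called. With Alb class as a block over all 25 arrays, 31 members were called at 12 weeks (29 lower, 2 higher) against 6.57% of all genes (2.88% lower, 3.69% higher), 19 of them of the 22 that follow Alb, and 9 of 16 hepatocyte markers were lower. At 8 weeks that fit called 3 members (3.11% of all genes), Cyp2c55 lower and Cyp2c37 (1.21 ± 0.31, limma adjusted p = 0.0313) and Cyp4a14 (0.94 ± 0.25, 0.0422) higher. The interaction of diet and time was then called for 7 members, Cyp1a2, Cyp2a4, Cyp2b13, Cyp2c23, Cyp2c37, Cyp2d26 and Cyp4a14, against 0.365% of all genes. Of these, 6 follow Alb, by the limit that also defines the block. The median 12-week difference of the 22 was -1.32 with and without the block. The block does not adjust for Alb within a class, and the low-Alb arrays at 12 weeks had 11.84 on LFD and 6.45 on HFD. With the level of Alb as a covariate instead, none of the 19 members that follow Alb and were called with the block was called at 12 weeks.

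**Figure D5:**
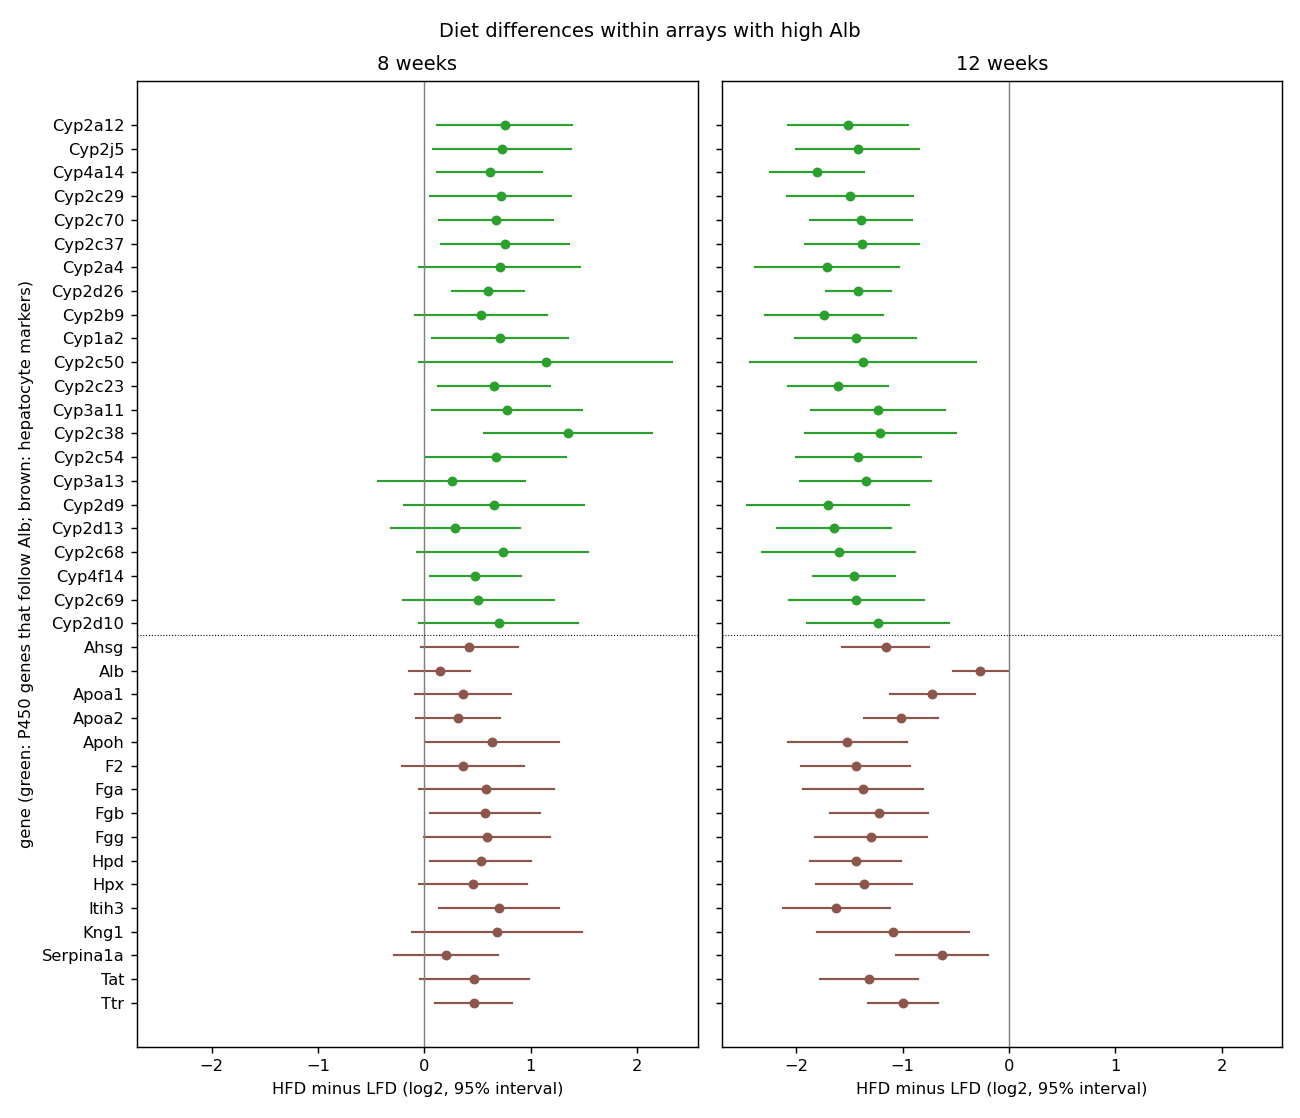
HFD minus LFD (log2, x axis) with 95% intervals within the arrays with high Alb at 8 weeks (left, 3 HFD and 2 LFD arrays) and 12 weeks (right, 3 and 3), for the 22 members that follow Alb (green) and 16 hepatocyte markers (brown). Both sets lie above 0 at 8 weeks and below 0 at 12 weeks.

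Over time on LFD, limma called 3 members at 12 against 4 weeks (0.681% of all genes, 0.298% higher and 0.383% lower): Cyp2a4 (4.54 ± 1.05, adjusted p = 0.046) and Cyp2b13 (2.44 ± 0.53, 0.0373) higher and Cyp1b1 lower. Cyp2a4 read 3.65, 3.78, 3.39 and 3.65 at 4 weeks and 9.43, 9.28, 5.47 and 8.45 at 12 weeks, where array 3 is the array with low Alb. The count was 31 without that array, 1 without 4-week array 1, and 0 without 4-week array 2 or 3 or 12-week array 1, 2 or 4. Without 12-week array 3, all LFD arrays left at 12 weeks had high Alb and all at 4 weeks low Alb. Time and Alb cannot then be told apart. No share of all genes is given for these refits, so their counts are not read as a result about the members. With Alb class as a block Cyp2a4 alone was called (1.74 ± 0.3, 0.0146; 0.0857% of all genes). LFD at 8 against 4 weeks gave 0 members called (0.636% of all genes), HFD at 8 against 4 weeks 0 (0.0%) and HFD at 12 against 4 weeks 0 (0.573%). At an unadjusted limma p under 0.05 were 9, 33 and 11 of the 72 members in these comparisons, in that order. Of all 22180 genes, 3446, 1964 and 2485 met the same limit. LFD at 4 weeks against chow gave 0 called (1.55% of all genes), with 11 members and 3837 of 22180 genes at an unadjusted limma p under 0.05. The count called was 1 without chow array 1, 6 without chow array 2 and 3 without LFD array 1. Chow array 1 held epididymis transcripts. The 38 members of neither class had medians of 2.28 to 6.67 on the arrays with low Alb, and chow array 1 held the highest value of Cyp2j13 (6.95, against at most 4.72 on the diet arrays).

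Genes that supply or act beside the P450s were taken from fixed lists. Of 11 measured genes for haem synthesis and electron supply, 2 were lower on average, Alad (-0.57 ± 0.12, limma adjusted p = 0.00241) and Ppox (-0.32 ± 0.09, 0.0247), both enzymes of haem synthesis, and 0 higher. Of 4 epoxide hydrolases, which open the epoxides P450s form, microsomal Ephx1 was higher at 8 weeks (0.72 ± 0.14, 0.00944) and on average (0.57 ± 0.09, 0.000122). Of 19 measured P450 genes of other families, the thromboxane synthase Tbxas1 was higher at 12 weeks (1.08 ± 0.19, 0.0021) and at 8 weeks (0.75 ± 0.19, 0.0416), and the sterol demethylase Cyp51 was lower at 8 weeks (-1.34 ± 0.29, 0.0171). Of 13 measured regulators of P450 genes, 0 were called by limma in the fit over all arrays at 8 weeks, at 12 weeks or on average. At an unadjusted limma p under 0.05 were 3 at 12 weeks and 2 on average, against 3567 and 4851 of 22180 genes. Within the arrays with high Alb at 12 weeks 6 of the 13 were lower, Hnf4a (-1.2 ± 0.18, 0.00176), the pregnane X receptor Nr1i2 (-1.23 ± 0.2, 0.00199), Ppara (-1.08 ± 0.18, 0.00234), Nr1h4, Nr1i3 and Nr0b2, alongside the hepatocyte markers.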

How the data were processed

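RNA of gonadal white adipose tissue was hybridised to Mouse Gene 2.0 ST arrays, 1 mouse an array. The deposited values are log2 signals per transcript cluster, normalized by the authors with Transcriptome Analysis Console 4.0.2, per the submitters' processing notes; the sources used here do not give the summarization or background steps. Of 34472 clusters, 23521 had 1 gene symbol and 1814 several, which were left out, so near-identical P450 genes sharing a cluster are not covered and cross-hybridisation between paralogs stays possible. The brightest cluster stood for each of 22180 genes. A model of 7 group means over 25 arrays was fitted with limma 3.58.1 in R 4.3.3 and adjusted by Benjamini-Hochberg over all genes, with calls at an adjusted p under 0.05; the interaction was a moderated F test. The script was tested on simulated data. Further fits used Alb class (limit 12.5) as a block, or arrays of 1 class. The arrays with low Alb hold 1 HFD array at 8 weeks and 1 array a diet at 12 weeks, so averages over them lean on single arrays. Named were members expressed without Alb, members called for diet, the 10 with the largest Alb difference, sex-biased members and those nearest each limit. Members, limits and lists were chosen with earlier results of these data known. Replicate numbers were not taken to pair the arrays, since the labels do not say so and deviations of same-numbered arrays correlated at a median of 0.05 (-0.61 to 0.71). Precision is limited by the number of arrays.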

Additional observations from a re-analysis of the deposited data

Results flagged for a closer look

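Among 155 groups of 4 arrays examined over the 31 members named, 28 held an array far from the others by Dixon's criterion. The usual chance rate of about 5% of groups is not a yardstick for this count. Members were named in part for their difference between arrays with high and low Alb, and such members move together. Of the 28, 13 were HFD 8-week array 1 and 7 were HFD 12-week array 3, arrays whose Alb was low in groups where the other 3 were high, and 1 was LFD 12-week array 3, likewise. In HFD 8-week array 1 the members that follow Alb read 6.35 for Cyp2a12 (others 10.99 to 11.15), 4.53 for Cyp2j5 (9.49 to 9.8), 4.13 for Cyp4a14 (9.15 to 9.32), 5.93 for Cyp2c29 (9.86 to 10.4) and 5.89 for Cyp2c70 (10.09 to 10.16). There Cyp2c37 read 5.26 (9.02 to 9.45), Cyp2a4 4.29 (8.38 to 8.83), Cyp2d26 5.81 (9.7 to 9.99), Cyp2b9 3.6 (7.77 to 8.09) and Cyp1a2 5.94 (9.32 to 9.52). Outside that class, Cyp2b13 read 4.22 (6.35 to 6.63), Cyp2f2 6.21 (9.16 to 9.51) and Cyp2e1 11.23 (12.88 to 13.01).

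In HFD 12-week array 3, Cyp2a12 read 5.64 (others 9.21 to 9.75), Cyp2j5 2.91 (7.99 to 8.51), Cyp4a14 3.47 (7.71 to 7.78), Cyp2c70 5.18 (8.59 to 9.15), Cyp2c37 3.58 (7.31 to 7.91), Cyp2d26 4.62 (8.64 to 8.84) and Cyp2f2 5.21 (8.47 to 8.6). In LFD 12-week array 3, Cyp2d26 read 6.44 (9.89 to 10.38).

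The other single arrays were spread over groups. Cyp2c55 and Cyp2u1 read 9.45 (10.4 to 10.59) and 7.84 (7.48 to 7.53) in LFD 8-week array 2. Cyp2f2 read 10.23 in LFD 4-week array 3 (9.37 to 9.42) and 8.65 in LFD 8-week array 4 (9.65 to 9.82). Cyp2b9 read 2.89 in LFD 4-week array 3 (3.41 to 3.47), Cyp2c29 read 6.19 in LFD 4-week array 1 (3.55 to 3.79), and Cyp3a44 read 3.34 in HFD 12-week array 4 (2.96 to 3.01).

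With Alb class as a block, a change of the diet difference with time was called for 7 members by limma's moderated F test, against 0 without the block. Of the 7, 6 follow Alb, a class set by the same limit on Alb as the block. These calls are therefore not independent of how the members were classed. The 12-week difference minus the 8-week difference was -2.79 for Cyp4a14, -2.68 for Cyp2c37, -2.21 for Cyp2a4, -2.18 for Cyp1a2, -2.17 for Cyp2b13, -2.12 for Cyp2d26 and -1.96 for Cyp2c23. In each of them HFD was above LFD at 8 weeks, by 0.6 (Cyp2d26) to 1.21 (Cyp2c37), and below it at 12 weeks, with differences from -1.85 (Cyp4a14) to -1.35 (Cyp2c23 and Cyp1a2). Hepatocyte markers had the same direction at both times within the arrays with high Alb, and their part in this was not tested.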

How the results depend on the processing

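The count of members called for diet at 4 weeks, 0 as reported, was 1 with array weights, with Alb class as a block and with Alb as a covariate. At 8 weeks (1 member) it was 0 with the mean of a gene's clusters and on arrays with low Alb alone, 3 with Alb class as a block, and 2 without genes under the median level, with array weights, without the 3 arrays with epididymis transcripts, with the compared groups alone and with the replicate number as a block. At 12 weeks (7) it was 11 with array weights, 31 with Alb class as a block and 34 on arrays with high Alb. Arrays with low Alb left 1 array a diet at 12 weeks, so no count is given there. With Alb as a covariate, none of the members that follow Alb and were called at 12 weeks with the block was called. The average (10) gave 2 on arrays with low Alb, an alternative chosen after seeing the data, and 4 by a 2-factor analysis of variance. The interaction (0) gave 7 with Alb class as a block and 6 by that analysis, without adjustment. LFD at 8 against 4 weeks (0) gave 1 with array weights and 1 with the replicate block. LFD at 12 against 4 weeks (3) gave 5 after quantile normalization, 1 with an intensity trend and robust moderation, 32 with array weights, 1 with Alb class as a block, 0 with Alb as a covariate, 1 without the arrays with epididymis transcripts and 9 with the replicate block. LFD at 4 weeks against chow (0) gave 1 after quantile normalization, 1 without genes under the median level, 1 with Alb as a covariate and 2 without the arrays with epididymis transcripts. The classes gave 6 members that follow Alb at an Alb limit of 11 and 5 expressed without Alb at a level of 8. The diet difference of Cyp2b9 at 12 weeks turned to 0.26 on arrays with low Alb, with 1 array a diet. Beyond the array sets and fewer samples named, the cause of these changes was not tested. Where no share of all genes stands in the text for a refit, its count is not read as a result about the members. Leaving out an array gave 0 to 0 members at 4 weeks, 1 to 1 at 8 weeks, 2 to 9 at 12 weeks, 6 to 11 on average, 0 to 31 for LFD at 12 against 4 weeks, 0 to 1 for LFD at 8 against 4 weeks and 0 to 6 for LFD at 4 weeks against chow. The average calls of Cyp2c55, Cyp2e1, Cyp2f2, Cyp4v3 and Cyp1b1 held without any single array. The replicate numbers were not taken as a pairing, since 29 of 67 same-numbered pairs, not all, correlated above 0.1; 11 of 25 arrays correlated best with their own number, a hint from the data and not from the design.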
